A study of Mus musculus with 9 samples.

Results

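The genes that carry glucose through uptake, glycolysis, lactate exchange, entry of pyruvate into mitochondria and the pentose phosphate pathway were followed in 9 mouse mammary tumours. The list named 39 genes by their place in these pathways, and 38 of them were among the 14108 genes counted. Pdk4 was not analysed here. All 38 passed the filter on low counts. The tumours grew from 3 cell lines, with 3 tumours each. HR1 (LB-mHR1) is a non-metastatic line from a mammary tumour of a transgenic mouse that carried PIK3CA H1047R under the CAG promoter. LM1 and LM9 are lines grown out of lung metastases after HR1 cells that carried a doxycycline-inducible piggyBac transposon system (HR1.PB) had been implanted, so all tumours share the PIK3CA allele. The labels do not say whether the HR1 tumours came from parental cells or from a transposon control. For each tumour 250000 cells in Matrigel and PBS were placed in the mammary fat pad of a female NOD/SCID mouse aged 4 to 8 weeks, a host without T and B cells, the tumour was taken before it reached 1500 mm3, and GFP-positive cells were sorted. The 3 tumours of a line repeat 1 line and not 3 separate metastases.

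Glycolysis splits glucose into pyruvate in the cytosol. Tumour cells often turn much of that pyruvate into lactate, which leaves the cell through monocarboxylate transporters, while pyruvate dehydrogenase kinases hold back its entry into the mitochondrion. The pentose phosphate pathway branches off at glucose 6-phosphate and gives NADPH and ribose. Many of these enzymes have several isoforms with different tissue patterns, and many are known targets of the hypoxia-inducible factors.

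Levels are given as CPM, the TMM-scaled count of a gene relative to a library of fixed size, and as RPKM, CPM per kilobase of the merged exons, where genes are compared with each other. Total counts ran from 32393958 to 46681945 per tumour, so 3 counts correspond to 0.0630 to 0.0997 CPM. Values of 3 tumours are listed in the order of replicates 1, 2 and 3. Nfib, whose level the study used to class the lines, had 1343, 23.9 and 18.3 CPM in the HR1 tumours and 421 to 791 CPM in the LM tumours, so the tumour labelled HR1 replicate 1 went against the low Nfib of its class. That tumour also stood apart from the other HR1 tumours, with a Pearson r of log2 CPM of 0.878 and 0.891 against 0.961 between the other two, and calls against HR1 are therefore also given without it. Among mammary epithelial markers Epcam reached at most 4.49 CPM and Cdh1 at most 1.20 CPM, and Krt14 was the only one of 6 above 11 CPM, at 1.56, 31.4 and 109 CPM in HR1, 175, 152 and 175 CPM in LM1 and 12.2 to 15.4 CPM in LM9, whereas Col1a1, a collagen gene of mesenchymal cells, had 6359 to 12669.7 CPM. Krt8 and Cldn7 were not analysed here. Apart from Krt14, the labelled mammary tumour cells thus showed the epithelial markers at low levels.

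Taken as one group, the 38 genes drew 0.896, 1.35 and 1.47% of all counts in HR1. Their share was 1.32, 1.29 and 1.502% in LM1 and 1.72, 1.96 and 1.85% in LM9. All LM9 tumours lay above all others, and the LM1 and HR1 tumours overlapped. By mean RPKM over the 9 tumours the order opened with Aldoa (774), Ldha (598), Pkm (518) and Tpi1 (361), which were also the first 4 by the mean of each line. The next by the mean of its line was Pgd in HR1 (115), Eno3 in LM1 (194) and Slc2a1 in LM9 (269.6). Aldoa exceeded Ldha, and Ldha exceeded Pkm, in 9 of 9 tumours, whereas most neighbours further down changed places from tumour to tumour. At the other end stood Ldhb (1.29) and Gapdh (0.457). Gapdh encodes glyceraldehyde-3-phosphate dehydrogenase, which as a rule is among the most abundant transcripts, but 90.4% of the 50-base windows of its main transcript (50 bases being the read length) also occur in transcripts of other genes, 215 pseudogenes among them. The same share was 72.2% for Eno1, 68.0% for Pgk1, 41.5% for Pgam1, 30.5% for Pkm and 27.0% for Ldhb. The levels of these 6 genes are uncertain, since how reads with several matches were counted is not given in the sources used here. For 26 of the 38 genes the share was under 5%.

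Most genes of uptake, upper glycolysis and lower glycolysis had their highest levels in the LM9 tumours (the heat map of all 38 genes by tumour). Against HR1, 14086 genes were tested by edgeR (quasi-likelihood) and p-values were adjusted by Benjamini-Hochberg, and at a threshold of 0.05 the test called 18 of the 38 genes in LM9, where 42.3% of all genes were called. Of these, 15 were higher (all genes 20.4%) and 3 were lower (all genes 21.9%). In LM1 against HR1, 10 genes were called (all genes 35.5%), 5 higher (all genes 16.7%) and 5 lower (all genes 18.7%). LM9 against LM1 gave 11 calls (all genes 22.0%), 10 higher in LM9 (all genes 11.5%) and 1 lower (all genes 10.6%). For both LM lines against HR1, 15 were called (all genes 43.6%), 10 higher (all genes 19.9%) and 5 lower (all genes 23.6%). As shares of the 38 genes, the calls came to 47.4% in LM9 against HR1, 26.3% in LM1 against HR1, 28.9% in LM9 against LM1 and 39.5% for both lines together, which is near the share of all genes each time. The calls in LM9 were mostly rises, whereas those of all genes were split evenly. The median log2 fold change of the 38 genes was 0.03 in LM1 and 0.52 in LM9 against HR1 and 0.58 in LM9 against LM1, beside -0.04, -0.05 and 0.00 over all genes. When the tumour labelled HR1 replicate 1 was left out, the medians against HR1 were -0.09 in LM1 and 0.34 in LM9. The 2 comparisons with HR1 share the HR1 tumours.

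**Figure D1:**
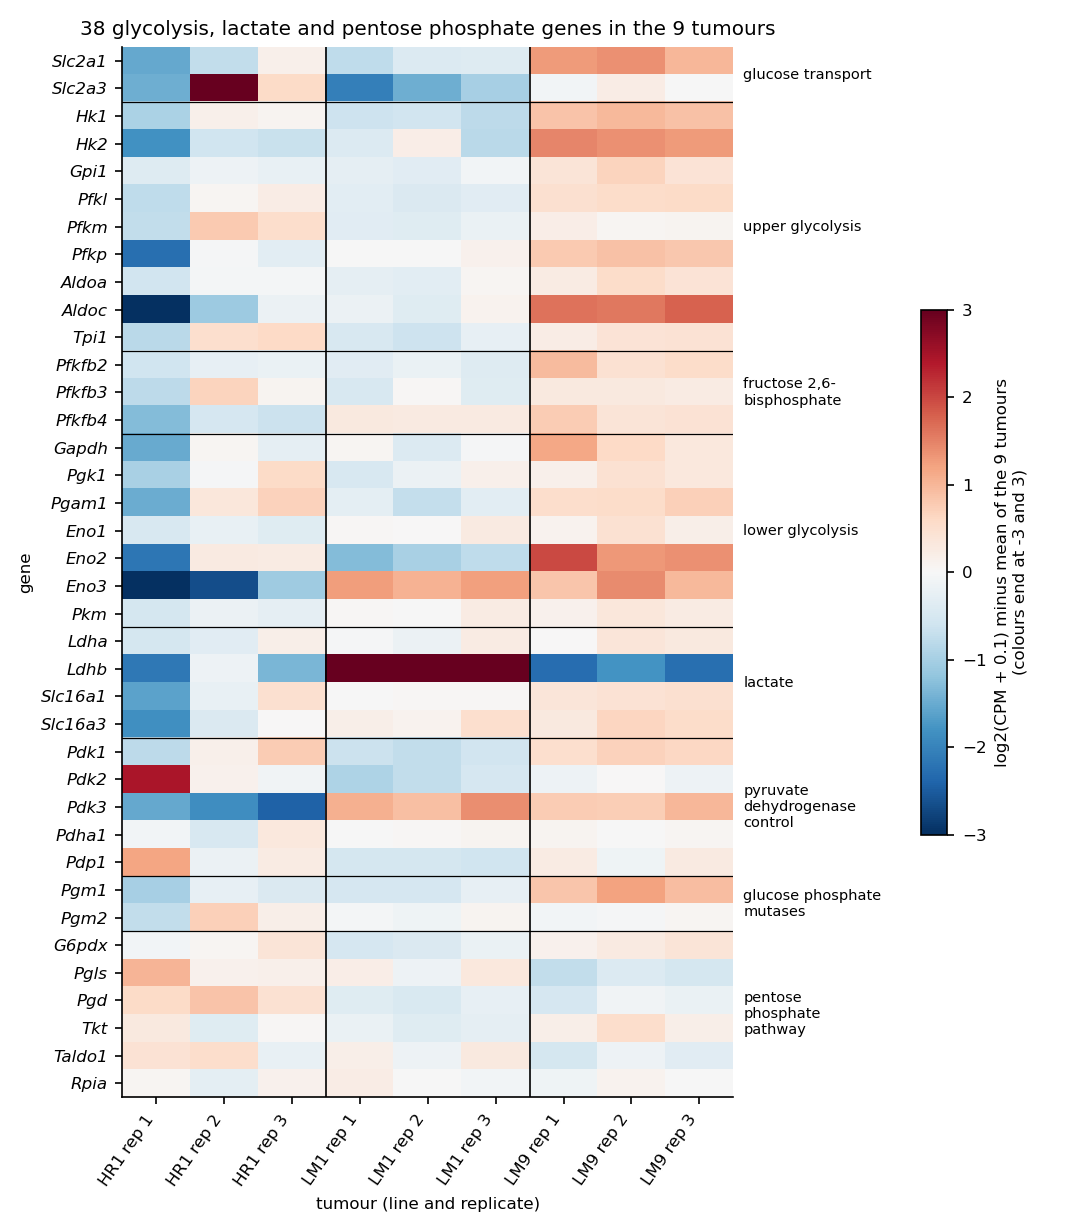
Heat map of the 38 genes (rows, grouped by role) in the 9 tumours (columns), as log2(CPM + 0.1) minus the mean of the 9 tumours for each gene, with colours ending at -3 and 3. The LM9 columns are above the mean for most genes of uptake and upper glycolysis, Ldhb stands out in the LM1 columns, Eno3 and Pdk3 are low in the HR1 columns, and HR1 replicate 1 differs from the other HR1 tumours in many rows.

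Without the tumour labelled HR1 replicate 1, LM9 against HR1 gave 18 higher (all genes 27.9%) and 6 lower (all genes 27.8%). LM1 against HR1 then gave 5 higher (all genes 26.9%) and 14 lower (all genes 26.0%), and both LM lines together 12 higher (all genes 27.5%) and 7 lower (all genes 28.5%). The 14 lower in LM1 were Slc2a3, Hk1, Pfkl, Pfkm, Tpi1, Pfkfb3, Pgam1, Eno2, Pdk1, Pdk2, Pdp1, Pgm2, Pgd and G6pdx. When the 6 LM tumours were fitted alone, 24 genes were called as higher in LM9 (all genes 28.3%) and 3 were lower (all genes 28.0%). As a plain count of tumours, every LM9 tumour lay above every LM1 tumour for 24 of the 38 genes (all genes 31.9%) and above every HR1 tumour for 18 of them (all genes 28.0%). The calls of 11 genes in LM9 against HR1, 5 in LM1 against HR1 and 4 in LM9 against LM1 held in each of the 18 other settings tried, which include leaving out each tumour. The share of all called genes that held in this way was not counted, so these numbers have no background. In bulk RNA a higher value can mean more RNA per cell or more cells of a kind, which cannot be told apart here.

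**Figure D2:**
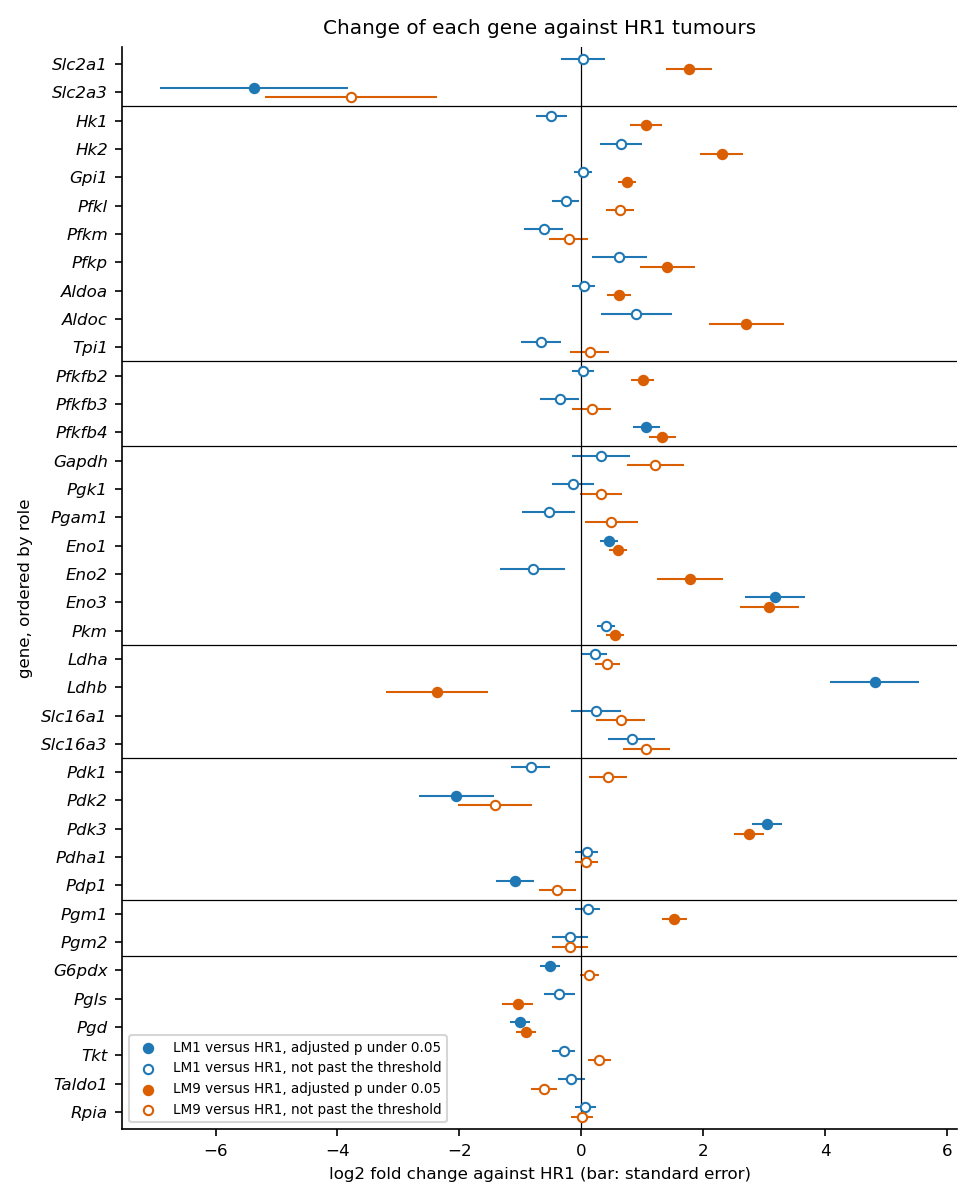
Log2 fold change against HR1 (x axis, bars are standard errors) for the 38 genes in order of role (y axis), LM1 in blue and LM9 in orange, with filled points for an adjusted p under 0.05. The genes of uptake and upper glycolysis lie on both sides of 0 in LM1 and mostly to the right of 0 in LM9, Eno3 and Pdk3 lie at about 3 in both lines, and Ldhb lies on opposite sides of 0.

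7 genes were called higher in LM9 than in HR1 and also higher in LM9 than in LM1, namely Slc2a1, Hk1, Hk2, Gpi1, Pfkfb2, Eno2 and Pgm1. This is 18.4% of the 38 genes, beside 6.16% of all genes, and both comparisons share the LM9 tumours. The promoters of the 5 with a single start in the table of RefSeq promoters (GRCm38.p6, the same build as mm10) are printed from 250 bases before to 50 bases after the start, 5′ to 3′ on the strand of the gene. Capitals mark ACGTG, the core of the hypoxia response element, or CACGT, the same letters on the other strand.
Slc2a1, chr4:119108495-119108794, forward strand: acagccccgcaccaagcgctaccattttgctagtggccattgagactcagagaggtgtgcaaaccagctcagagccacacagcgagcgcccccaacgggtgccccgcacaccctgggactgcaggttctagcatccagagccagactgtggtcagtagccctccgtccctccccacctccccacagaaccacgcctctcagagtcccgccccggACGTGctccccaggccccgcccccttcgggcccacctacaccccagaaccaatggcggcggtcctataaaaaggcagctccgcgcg
Hk2, chr6:82774405-82774704, reverse strand: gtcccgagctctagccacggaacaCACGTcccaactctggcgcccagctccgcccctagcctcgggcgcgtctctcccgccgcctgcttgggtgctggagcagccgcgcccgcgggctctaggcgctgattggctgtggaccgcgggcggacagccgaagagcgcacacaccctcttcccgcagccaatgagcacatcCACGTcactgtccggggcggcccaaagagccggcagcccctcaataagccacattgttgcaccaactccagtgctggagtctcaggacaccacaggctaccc
Pgm1, chr4:99929201-99929500, forward strand: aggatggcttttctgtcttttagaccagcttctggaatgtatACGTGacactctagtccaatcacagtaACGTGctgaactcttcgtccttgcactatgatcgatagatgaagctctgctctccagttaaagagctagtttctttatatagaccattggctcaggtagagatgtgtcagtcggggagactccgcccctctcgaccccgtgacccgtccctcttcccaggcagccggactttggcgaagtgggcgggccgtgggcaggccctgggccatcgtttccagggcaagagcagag
Eno2, chr6:124769624-124769923, reverse strand: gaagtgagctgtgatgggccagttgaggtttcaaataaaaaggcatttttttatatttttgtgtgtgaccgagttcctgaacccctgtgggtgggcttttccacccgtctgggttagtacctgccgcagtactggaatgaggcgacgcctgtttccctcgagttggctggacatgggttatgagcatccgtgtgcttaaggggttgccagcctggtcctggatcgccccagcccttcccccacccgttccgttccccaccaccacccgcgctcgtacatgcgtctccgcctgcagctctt
Gpi1, chr7:34230287-34230586, reverse strand: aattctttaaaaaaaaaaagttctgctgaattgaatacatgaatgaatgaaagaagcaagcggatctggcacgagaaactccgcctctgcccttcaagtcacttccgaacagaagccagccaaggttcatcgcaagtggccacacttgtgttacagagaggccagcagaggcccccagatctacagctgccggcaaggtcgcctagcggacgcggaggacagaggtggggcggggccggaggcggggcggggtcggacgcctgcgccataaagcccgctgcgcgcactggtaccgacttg
The Slc2a1 window held 1 match, the Hk2 and Pgm1 windows 2 each and the Eno2 and Gpi1 windows none. Hk1 and Pfkfb2 have several starts, and 1 of 2 windows of Hk1 and 2 of 3 of Pfkfb2 held a match. Of the 38 genes, 36 had a promoter window, and ACGTG on either strand was in a window of 20 of these 36 (55.6%), beside 28.7% of the 11112 genes in the files with a window. Genes with several windows have more places for a match. Counted by window, ACGTG was in 24 of 53 (45.3%), beside 24.7% of all 14111 windows. CACGTG, an E-box that contains ACGTG, was in 6 of the 36 (16.7%) and in 11.5% of all. TTGGC, the half-site of the nuclear factor I family to which Nfib belongs, was in 23 of the 36 (63.9%) and in 55.3% of all. These are counts of letters in short windows and were not tested.

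Of the 2 genes of glucose uptake, 1 rose in LM9 (all genes 20.4%) and 1 was called lower in LM1 (all genes 18.7%) against HR1. Slc2a1 encodes GLUT1, the transporter that most proliferating cells use, and it was the transporter with the higher level per length in each tumour. It had 139, 243 and 449 CPM in HR1, 237, 301 and 308 CPM in LM1 and 980.1, 1048 and 807 CPM in LM9. Every LM9 tumour was above every other tumour, and the LM1 tumours lay inside the HR1 range. The log2 fold change was 1.77 ± 0.37 (SE) in LM9 against HR1, or 3.41-fold (edgeR adjusted p = 0.00607), and 1.74 ± 0.37 against LM1 (edgeR adjusted p = 0.0132), but 0.03 ± 0.36 in LM1 against HR1 (edgeR adjusted p = 0.964). Leaving out the tumour labelled HR1 replicate 1 gave 1.45 in LM9 (edgeR adjusted p = 0.00118). The call against LM1 was lost without LM1 replicate 1 or 3, with log2 values of 1.63 to 1.85 and an adjusted p of at most 0.0638 over all settings. Slc2a3, which encodes the high-affinity transporter GLUT3, showed 1.03, 123 and 4.53 CPM in HR1, 0.651, 1.02 and 1.45 CPM in LM1 and 2.85, 3.50 and 2.97 CPM in LM9. Only HR1 replicate 2 was high. Slc2a3 was called lower in LM1 against HR1, a log2 fold change of -5.36 ± 1.54 (edgeR adjusted p = 0.0258), but at -1.43 it was no longer called without that tumour (edgeR adjusted p = 0.102), nor without any single LM1 tumour (adjusted p at most 0.225). It stood at -5.94 without the tumour labelled HR1 replicate 1 (edgeR adjusted p = 0.00242), and was then also called lower in LM9, at -4.35 (edgeR adjusted p = 0.00683).

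Of the 9 genes of upper glycolysis, 6 rose in LM9 (all genes 20.4%) and none was called in LM1 (all genes 35.5%) against HR1, while 4 were higher in LM9 than in LM1 (all genes 11.5%). The hexokinases trap glucose as glucose 6-phosphate. Hk1 had 149, 320.3 and 305 CPM in HR1, 188, 195 and 168 CPM in LM1 and 526, 564 and 528 CPM in LM9. Hk2, the inducible hexokinase of many tumours, had 22.3, 51.6 and 49.7 CPM in HR1, 58.8, 90.9 and 44.7 CPM in LM1 and 216, 203 and 191 CPM in LM9. For both genes the LM9 tumours lay above all 6 others, and the LM1 tumours overlapped the HR1 tumours. In LM9 Hk1 rose 2.09-fold against HR1, a log2 fold change of 1.06 ± 0.26 (edgeR adjusted p = 0.0115), and 2.94-fold against LM1 (edgeR adjusted p = 0.00533). Hk2 rose 4.94-fold against HR1, a log2 fold change of 2.31 ± 0.36 (edgeR adjusted p = 0.00156), and 3.14-fold against LM1 (edgeR adjusted p = 0.0128). Without the tumour labelled HR1 replicate 1 the LM9 values were 0.79 for Hk1 and 2.01 for Hk2 (edgeR adjusted p = 3.8e-04 and 2.1e-04), and Hk1 then passed the threshold as lower in LM1, with -0.76 (edgeR adjusted p = 4.0e-04). The Hk2 call against LM1 was lost without LM1 replicate 1 or 3 (adjusted p at most 0.0614, log2 values 1.44 to 1.98).

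Phosphofructokinase commits sugar to glycolysis and is built from the subunits Pfkl, Pfkm and Pfkp. Pfkp had 56.6, 266 and 219 CPM in HR1, 271, 271 and 297 CPM in LM1 and 469, 496 and 477 CPM in LM9. The 3 groups did not overlap, with HR1 lowest and LM9 highest. Its log2 fold change in LM9 against HR1 was 1.41 ± 0.45 (edgeR adjusted p = 0.0338) and 0.99 without the tumour labelled HR1 replicate 1 (edgeR adjusted p = 1.6e-04), and the call was lost without any single LM1 or LM9 tumour (adjusted p at most 0.0870). Pfkl, with 319.6 to 809 CPM over the 9 tumours, was called only in LM9 against LM1, at 0.89 ± 0.23 (edgeR adjusted p = 0.0252), a call lost without any single LM tumour (adjusted p at most 0.0850). Against HR1 Pfkl missed the threshold in LM9 (edgeR adjusted p = 0.0501) and passed it without the tumour labelled HR1 replicate 1, at 0.40 (edgeR adjusted p = 0.0138). Pfkm, the muscle subunit, had 91.3 to 263 CPM and was called in no pairwise comparison of the 9 tumours. With HR1 replicate 1 left out it was called lower in LM1 and in LM9, at -0.94 and -0.54 (edgeR adjusted p = 1.8e-04 and 0.00414), and Pfkl lower in LM1, at -0.49 (edgeR adjusted p = 0.00434).

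Aldoa, the most abundant gene of the list per length, encodes the aldolase of muscle and most other tissues. It had 1474, 2094 and 2117 CPM in HR1, 1816, 1750.2 and 2290.4 CPM in LM1 and 2618, 3224 and 2901 CPM in LM9. The LM9 tumours were above all others, and the rise against HR1 was small, at 0.62 ± 0.19 on the log2 scale (edgeR adjusted p = 0.0285) and 0.47 without the tumour labelled HR1 replicate 1 (edgeR adjusted p = 0.0242). That call was lost without any single LM9 tumour (adjusted p at most 0.106). Aldoc, the brain aldolase, was scarce in HR1, at 3.03, 14.3 and 27.2 CPM, and had 26.9, 23.6 and 33.0 CPM in LM1 and 94.8, 92.3 and 105 CPM in LM9. Here too the LM9 tumours did not overlap the others, and the LM1 tumours overlapped the upper part of the HR1 range. Aldoc rose 6.55-fold in LM9 against HR1, a log2 fold change of 2.71 ± 0.61 (edgeR adjusted p = 0.00868), with 2.23 without the tumour labelled HR1 replicate 1 (edgeR adjusted p = 1.3e-04). Over the 18 other settings the Aldoc value ran from 2.23 to 3.48. Against LM1 it reached 1.81 ± 0.59 (edgeR adjusted p = 0.0588) in the fit of 9 tumours and 1.80 (edgeR adjusted p = 1.1e-06) in the 6 LM tumours alone. Gpi1, the isomerase after hexokinase, rose in LM9 against HR1 by 0.75 and against LM1 by 0.72 on the log2 scale (edgeR adjusted p = 0.00438 and 0.011), with 0.68 against HR1 without the tumour labelled HR1 replicate 1 (edgeR adjusted p = 0.00243), with 669.8 to 824 CPM in LM9 and 409.8 to 489.7 CPM in LM1, and the second call was lost without LM1 replicate 1 or LM9 replicate 2 (adjusted p at most 0.0588). Tpi1, triose phosphate isomerase, was called in no pairwise comparison of the 9 tumours, with 530.0, 1319 and 1418 CPM in HR1, 672, 604 and 790.1 CPM in LM1 and 1097 to 1263 CPM in LM9. Every LM9 tumour was above every LM1 tumour. Tpi1 without the tumour labelled HR1 replicate 1 was called lower in LM1, at -0.98 (edgeR adjusted p = 3.2e-04), and not called in LM9, at -0.18 (edgeR adjusted p = 0.283).

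The bifunctional PFKFB enzymes make and remove an allosteric activator of phosphofructokinase. The 3 genes were of low and similar level per length, with mean RPKM of 3.68 for Pfkfb4, 3.07 for Pfkfb2 and 2.99 for Pfkfb3. Pfkfb4 had 6.68, 11.7 and 10.5 CPM in HR1, 20.2, 20.1 and 20.1 CPM in LM1 and 28.3, 21.6 and 22.5 CPM in LM9. All 6 LM tumours were above all HR1 tumours, and Pfkfb4 rose in both lines, by 1.07 ± 0.22 in LM1 and 1.33 ± 0.22 in LM9 (log2, edgeR adjusted p = 0.00667 and 0.00219). The values were 0.87 and 1.13 (edgeR adjusted p = 0.0016 and 3.5e-04) without the tumour labelled HR1 replicate 1. Pfkfb2 had 13.7, 17.7 and 18.3 CPM in HR1, 16.5, 18.3 and 16.0 CPM in LM1 and 40.4, 28.8 and 30.7 CPM in LM9. The LM9 tumours were above all others. It rose in LM9, by 1.01 ± 0.18 against HR1 and 0.98 ± 0.18 against LM1 (edgeR adjusted p = 0.00323 and 0.00818), and in LM1 against HR1 it was at 0.03 ± 0.18 (edgeR adjusted p = 0.907). Its LM9 value was 0.89 (edgeR adjusted p = 0.0019) without the tumour labelled HR1 replicate 1. Pfkfb3, with 12.6 to 34.4 CPM, was called in no pairwise comparison of the 9 tumours, and without HR1 replicate 1 was lower in LM1, at -0.64 (edgeR adjusted p = 0.0223).

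**Figure D3:**
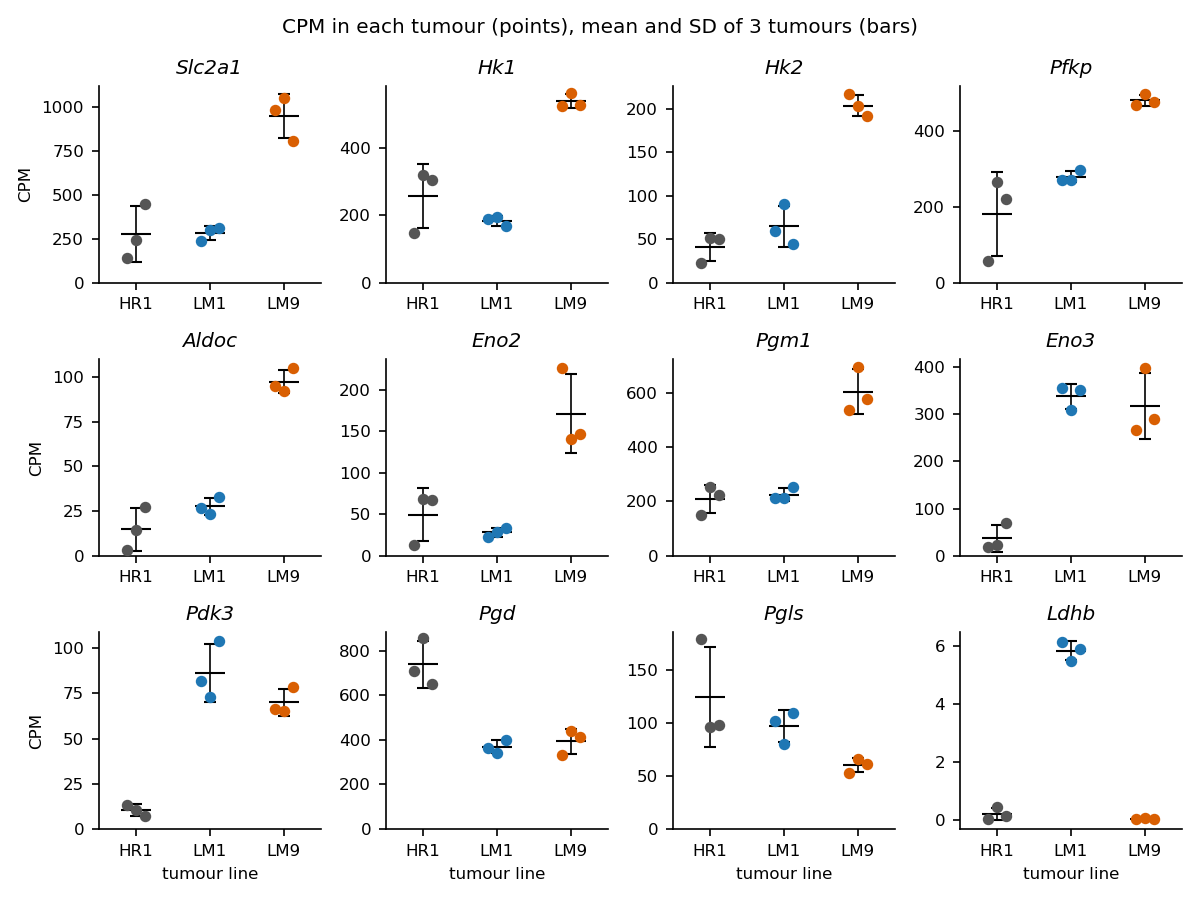
CPM (y axes, each from about 0) in each of the 9 tumours for 12 genes, 1 point per tumour, with the mean and SD of 3 tumours as black bars. Slc2a1, Hk1, Hk2, Pfkp, Aldoc, Eno2 and Pgm1 are highest in the 3 LM9 tumours, Eno3 and Pdk3 are high in both LM lines, Pgd is high in HR1, Pgls is lowest in LM9, and Ldhb is seen mainly in LM1.

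Of the 7 genes of lower glycolysis, 4 rose in LM9 (all genes 20.4%) and 2 in LM1 (all genes 16.7%) against HR1, and 1 was higher in LM9 than in LM1, near the share of all genes (11.5%). Enolase turns 2-phosphoglycerate into phosphoenolpyruvate, and its genes Eno1 (most tissues), Eno2 (neurons) and Eno3 (muscle) differed in their pattern. Eno3 had 18.1, 23.5 and 70.4 CPM in HR1, 355, 307 and 349.9 CPM in LM1 and 265, 396 and 289 CPM in LM9. Every LM tumour was well above every HR1 tumour, and the 2 LM lines overlapped. Eno3 rose 9.04-fold in LM1 and 8.49-fold in LM9 against HR1, log2 fold changes of 3.18 ± 0.49 and 3.09 ± 0.49 (edgeR adjusted p = 0.0018 and 0.00172). Both remained large, at 2.85 and 2.76 (edgeR adjusted p = 7.4e-04 and 8.2e-04), without the tumour labelled HR1 replicate 1. Over the 18 other settings they ran from 2.85 to 4.02 in LM1 and from 2.76 to 3.93 in LM9, so the folds are loosely set. Eno2 had 12.7, 68.2 and 67.9 CPM in HR1, 23.1, 28.9 and 33.6 CPM in LM1 and 226, 140.3 and 147 CPM in LM9. The LM9 tumours were above all others and the LM1 tumours lay within the HR1 range. Eno2 was 6.003-fold higher in LM9 than in LM1, a log2 fold change of 2.59 ± 0.55 (edgeR adjusted p = 0.0139), and 3.45-fold higher than in HR1 (edgeR adjusted p = 0.0274). The first call was lost without LM1 replicate 1 or 3 or LM9 replicate 1 (adjusted p at most 0.0659), and the second without any single LM9 tumour (adjusted p at most 0.0899). With the tumour labelled HR1 replicate 1 left out, Eno2 was higher in LM9 at 1.33 (edgeR adjusted p = 0.00113) and lower in LM1 at -1.25 (edgeR adjusted p = 0.00131).

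Pkm encodes the pyruvate kinase of most proliferating cells and had the highest computed RPKM of lower glycolysis, an order that is uncertain because 5 of the 7 genes of this role, Pkm among them, share many windows with other genes. It had 1772, 2260.2 and 2109 CPM in HR1, 2601, 2541 and 3008 CPM in LM1 and 2801, 3202 and 3006 CPM in LM9. All LM tumours were above all HR1 tumours, by a small amount. The log2 fold change was 0.55 ± 0.15 in LM9 (edgeR adjusted p = 0.0173) and 0.41 ± 0.15 in LM1, which missed the threshold (edgeR adjusted p = 0.0601). The LM9 call was lost without LM9 replicate 2 or 3 (adjusted p at most 0.0718), and without the tumour labelled HR1 replicate 1 its value was 0.46 (edgeR adjusted p = 0.0124). Eno1, with 388 to 467 CPM in HR1 and 580.4 to 745 CPM in LM9, rose by 0.46 in LM1 and 0.60 in LM9 (edgeR adjusted p = 0.0445 and 0.0136). The LM1 call for Eno1 was lost in 9 of 18 other settings, among them without HR1 replicate 3, any LM1 tumour or LM9 replicate 1 or 3 (adjusted p at most 0.139), and the LM9 call without LM9 replicate 2 (adjusted p 0.0632). The Eno1 values were 0.40 and 0.54 without the tumour labelled HR1 replicate 1 (edgeR adjusted p = 0.0418 and 0.0111). Pgk1, Pgam1 and Gapdh were called in no pairwise comparison of the 9 tumours. Pgam1 had 15.5, 54.8 and 69.8 CPM in HR1, 26.3 to 35.6 CPM in LM1 and 62.4 to 71.6 CPM in LM9, while Pgk1 had 71.5 to 211 and Gapdh 0.532 to 3.91 CPM over the 9 tumours. For Pgam1 and Gapdh every LM9 tumour was above every LM1 tumour. Pgam1 without the tumour labelled HR1 replicate 1 was called lower in LM1, at -0.94 (edgeR adjusted p = 0.00108), and was at 0.08 in LM9, and neither Pgk1 (-0.45 and 0.01) nor Gapdh (-0.02 and 0.87) was called.

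Ldha encodes the dehydrogenase subunit that favours lactate and Ldhb the heart-type subunit. Ldha had 1354, 1544 and 2179 CPM in HR1, 1901, 1710.3 and 2297 CPM in LM1 and 1956, 2499.6 and 2381 CPM in LM9. The groups overlapped and Ldha was called in no comparison, with log2 fold changes against HR1 of 0.22 ± 0.21 in LM1 and 0.43 ± 0.21 in LM9 (edgeR adjusted p = 0.448 and 0.131), and 0.09 and 0.29 without the tumour labelled HR1 replicate 1 (edgeR adjusted p = 0.713 and 0.211). Ldhb was close to absent outside LM1. Its raw counts were 1, 19 and 5 in HR1, 291, 242 and 232 in LM1 and 1, 3 and 1 in LM9. The LM1 tumours stood far above all others at 6.11, 5.48 and 5.89 CPM, while the LM9 and HR1 tumours overlapped. From the summed counts scaled by library size, LM1 exceeded HR1 26.5-fold (95% exact counting interval 17.8 to 41.1) and LM9 157-fold (67.1 to 485), intervals that cover counting error only. Both differences were called (edgeR adjusted p = 0.00165 and 0.00146), also in all 18 other settings, among them without the tumour labelled HR1 replicate 1 (edgeR adjusted p = 1.1e-04 for LM1 against HR1). The log2 fold change of LM1 against HR1 was 4.81 and ran from 4.36 to 6.06 over those settings, so the size of the fold is loosely set. Ldhb was also called lower in LM9 than in HR1 (edgeR adjusted p = 0.049), a call that rested on 25 HR1 counts in all and was lost without HR1 replicate 2 (adjusted p 0.245) and without any single LM tumour, but not without HR1 replicate 1 (edgeR adjusted p = 0.00497). Even in LM1, Ldhb was a small part of lactate dehydrogenase, with 99.3 to 99.5% of the summed RPKM coming from Ldha.

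Slc16a1 (MCT1) and Slc16a3 (MCT4) encode proton-linked lactate transporters, MCT4 being the exporter of glycolytic cells. Slc16a3 had 182, 479 and 656 CPM in HR1, 733, 696 and 915 CPM in LM1 and 801, 1010.3 and 944 CPM in LM9. All LM tumours were above all HR1 tumours, and both differences missed the threshold, at 0.83 ± 0.39 in LM1 and 1.06 ± 0.39 in LM9 (edgeR adjusted p = 0.123 and 0.0533). Leaving out the tumour labelled HR1 replicate 1 gave 0.47 and 0.70 (edgeR adjusted p = 0.052 and 0.0094). Slc16a1, with 64.1 to 274 CPM in HR1, 195 to 200.2 CPM in LM1 and 250.02 to 274 CPM in LM9, was called in no comparison of the 9 tumours. In the 6 LM tumours alone it was higher in LM9, by 0.40 (edgeR adjusted p = 0.00417).

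Of the 5 genes of pyruvate dehydrogenase and its control in the files, 1 rose in both lines (all genes 16.7% in LM1 and 20.4% in LM9) and 2 were called lower in LM1 (all genes 18.7%). The kinases Pdk1, Pdk2 and Pdk3 phosphorylate and inhibit the complex and the phosphatase Pdp1 reverses this. Pdk3 had 13.5, 10.7 and 7.18 CPM in HR1, 81.9, 73.0 and 104 CPM in LM1 and 66.5, 65.2 and 78.4 CPM in LM9. The lowest LM tumour was far above the highest HR1 tumour. Pdk3 rose 8.26-fold in LM1 and 6.71-fold in LM9, log2 fold changes of 3.05 ± 0.25 and 2.75 ± 0.25 (edgeR adjusted p = 1.4e-04 and 1.3e-04), and 3.28 and 2.97 without the tumour labelled HR1 replicate 1 (edgeR adjusted p = 5.6e-06 and 6.9e-06). Pdk1, a known hypoxia target, had 49.6, 94.7 and 145 CPM in HR1, 54.2, 51.1 and 57.6 CPM in LM1 and 122, 139 and 132 CPM in LM9. The LM9 tumours lay inside the HR1 range and above all LM1 tumours. Against HR1 it was not called, and without HR1 replicate 1 it was lower in LM1, at -1.14 (edgeR adjusted p = 4.3e-04), and at 0.13 in LM9 (edgeR adjusted p = 0.546). Its log2 difference between LM9 and LM1 was 1.27 ± 0.32 (edgeR adjusted p = 0.0237), a call lost without any single LM tumour (adjusted p at most 0.0857) but present in the 6 LM tumours alone, at 1.26 (edgeR adjusted p = 2.4e-06).

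Pdk2 had 54.2, 10.9 and 9.16 CPM in HR1, 5.15, 5.87 and 6.93 CPM in LM1 and 8.86, 10.003 and 8.96 CPM in LM9. The tumour labelled HR1 replicate 1 was alone in its high level. Pdk2 was called lower in LM1, at -2.05 ± 0.62 (edgeR adjusted p = 0.0316), and without that tumour the value shrank to -0.74 (edgeR adjusted p = 0.01). The call was lost without any single LM1 or LM9 tumour (adjusted p at most 0.104). Pdp1 had 72.7, 28.4 and 38.3 CPM in HR1, 22.4, 22.4 and 21.1 CPM in LM1 and 38.2, 29.2 and 38.6 CPM in LM9, again with its highest value in the tumour labelled HR1 replicate 1. It was called lower in LM1, at -1.08 ± 0.31 (edgeR adjusted p = 0.0254), and at -0.60 without that tumour (edgeR adjusted p = 0.0156), and the call was lost without any single LM1 tumour (adjusted p at most 0.0777). Pdha1 encodes the catalytic alpha subunit of the complex and was its most abundant gene in the list. It had 238, 182 and 313 CPM in HR1, 252, 259 and 269 CPM in LM1 and 266, 249 and 264 CPM in LM9. The groups overlapped, with log2 fold changes of 0.09 ± 0.19 and 0.09 ± 0.19 against HR1 (edgeR adjusted p = 0.741 and 0.734), and 0.08 and 0.07 without the tumour labelled HR1 replicate 1 (edgeR adjusted p = 0.76 and 0.777).

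The glucose phosphate mutases move phosphate between carbons of glucose and of pentose and join glycolysis to glycogen. The mouse symbols have been exchanged over time, so Pgm1 here is the gene with Entrez number 72157 on chromosome 4 and Pgm2 the gene with number 66681 on chromosome 5. Pgm1 had 150.4, 253 and 224 CPM in HR1, 212, 212 and 253 CPM in LM1 and 537, 696 and 578 CPM in LM9. The LM9 tumours all exceeded the highest other tumour, at 253 CPM, by a wide margin, and the LM1 and HR1 tumours overlapped. Pgm1 rose 2.89-fold in LM9 against HR1, a log2 fold change of 1.53 ± 0.21 (edgeR adjusted p = 8.9e-04), and 2.67-fold against LM1 (edgeR adjusted p = 0.00323). The value against HR1 without the tumour labelled HR1 replicate 1 was 1.34 (edgeR adjusted p = 9.0e-05). Pgm2, with 43.1 to 118 CPM, was called in no comparison of the 9 tumours, and without HR1 replicate 1 was lower in LM1 and LM9, at -0.48 and -0.48 (edgeR adjusted p = 0.0255 and 0.025).

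Of the 6 genes of the pentose phosphate pathway, 2 fell in LM1 (all genes 18.7%) and 2 in LM9 (all genes 21.9%) against HR1, and none was called higher (all genes 16.7% and 20.4%). Pgd, the second NADPH-forming dehydrogenase, had 708, 855 and 652 CPM in HR1, 365, 342 and 399.9 CPM in LM1 and 331, 439 and 413 CPM in LM9. Every HR1 tumour was above every LM tumour, and the LM lines overlapped. It fell by 1.00 in LM1 and by 0.91 in LM9 on the log2 scale, to 0.499 and 0.534 of the HR1 level (edgeR adjusted p = 0.00231 and 0.00314), and both values moved little without the tumour labelled HR1 replicate 1 (-1.02 and -0.93, edgeR adjusted p = 5.8e-04 and 9.5e-04). Pgls, the lactonase of the same branch, had 179.6, 96.6 and 98.6 CPM in HR1, 102, 80.3 and 109.7 CPM in LM1 and 53.1, 66.6 and 61.9 CPM in LM9. The LM9 tumours were below all others. Pgls fell in LM9 by 1.04 on the log2 scale (edgeR adjusted p = 0.0115), with -0.69 without the tumour labelled HR1 replicate 1 (edgeR adjusted p = 0.00404), and the call was lost without LM9 replicate 1 (adjusted p 0.0507). G6pdx, the entry enzyme, had 254, 277 and 348 CPM in HR1, 189, 197 and 233 CPM in LM1 and 291, 324 and 352 CPM in LM9. The LM1 tumours were below all others.

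G6pdx fell in LM1 against HR1 by 0.51 (edgeR adjusted p = 0.0378) and exceeded its LM1 level in LM9 by 0.64 ± 0.16 (edgeR adjusted p = 0.0237). The first call was lost in 9 of 18 other settings, among them without HR1 replicate 2 or 3, LM1 replicate 1 or 2 or any LM9 tumour (adjusted p at most 0.136), and the second without LM1 replicate 1 or 2 or any LM9 tumour (adjusted p at most 0.103). The fall in LM1 was -0.59 without the tumour labelled HR1 replicate 1 (edgeR adjusted p = 0.00781). In the 6 LM tumours alone the second stood at 0.63 (edgeR adjusted p = 8.3e-04). The genes of the non-oxidative branch, Tkt (transketolase), Taldo1 (transaldolase) and Rpia (ribose 5-phosphate isomerase), were called in no comparison of the 9 tumours, with 338 to 629, 126 to 261 and 12.9 to 18.5 CPM. With HR1 replicate 1 left out Tkt was higher in LM9 than in HR1, at 0.46 (edgeR adjusted p = 0.0324). Between LM9 and LM1 alone Tkt was higher, at 0.57, and Taldo1 lower, at -0.46 (edgeR adjusted p = 0.00212 and 0.014).

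Shares of an isoform in the summed RPKM of its set were compared over the 6 LM and 3 HR1 tumours by two-sided exact permutation tests, adjusted by Benjamini-Hochberg over 18 shares. The 6 LM tumours pool 3 of each of 2 lines, so these tests take tumours and not lines as the unit. 12 of the 18 shares passed, each at the smallest p the design allows (0.0238, adjusted 0.0357). A pass here means that the 6 LM and 3 HR1 tumours did not overlap. Such separation was not counted over all genes, of which edgeR called 43.6% for both LM lines against HR1. Shares of the same set are tied to each other, so the 18 are not separate results. With 3 against 3 tumours no p can be below 0.1, and none of the 18 passed in any pairwise comparison, also without adjustment. Hk1 made up 82.4, 81.3 and 81.1% of the 2 hexokinases in HR1, 69.1, 60.0 and 72.4% in LM1 and 63.0, 66.0 and 65.9% in LM9. Eno1 made up 84.7, 75.6 and 58.9% of enolase in HR1, 33.1, 35.6 and 36.9% in LM1 and 35.0, 35.0 and 36.7% in LM9, with Eno3 taking 11.7 to 30.3%, 60.9 to 65.4% and 49.4 to 57.5%. The Eno1 level, and with it these shares, carries the doubt on shared windows given above. The shares also depend on the lengths used, with merged exons of 5379 bases for Eno1 and 1739 bases for Eno3. By mean CPM, Eno1 exceeded Eno3 in LM1 (585 against 337) and in LM9 (647 against 317). Lengths differ in other sets too, with 13401 bases for Pfkp and 6675 for Pfkl. With shares of CPM 12 passed as well, and 15 of 18 kept their direction. Among the pyruvate dehydrogenase kinases Pdk3 took 18.3, 21.1 and 11.5% in HR1, 78.8, 77.2 and 80.9% in LM1 and 58.5, 54.8 and 60.7% in LM9.

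Pfkp rose from 5.31 to 10.8% of phosphofructokinase in HR1 to 16.6 to 17.4% in LM1 and 17.3 to 18.1% in LM9, while Pfkm fell from 34.4 to 42.8% to 29.9 to 31.6% and 23.4 to 26.1%. The Pfkfb4 share rose from 25.5 to 27.8% to 42.9 to 48.9% in LM1 and 37.2 to 38.9% in LM9, and the Pfkfb3 share fell. Slc16a1 gave 29.4 to 33.4% of the 2 lactate transporters in HR1, 20.8 to 25.7% in LM1 and 24.0 to 27.3% in LM9. The other shares that passed were those of Slc2a1, Aldoa and Pdk2, and within HR1 the Slc2a1 share stood apart in replicate 2 and the Pdk2 share in replicate 1. Pfkl, Pfkfb2, Eno2, Ldha, Pdk1 and Pgm1 did not pass. Pgm1 made up 65.5 to 75.6% of the mutases in HR1, 73.0 to 74.4% in LM1 and 87.1 to 89.7% in LM9 (exact permutation, adjusted p = 0.122). Without the tumour labelled HR1 replicate 1, the LM and HR1 tumours did not overlap for 14 of the 18 shares, although 6 against 2 tumours cannot give a p below 0.0714. Without any single LM tumour 12 shares did not overlap, and none then passed (exact permutation p 0.0357, adjusted 0.0536).

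**Figure D4:**
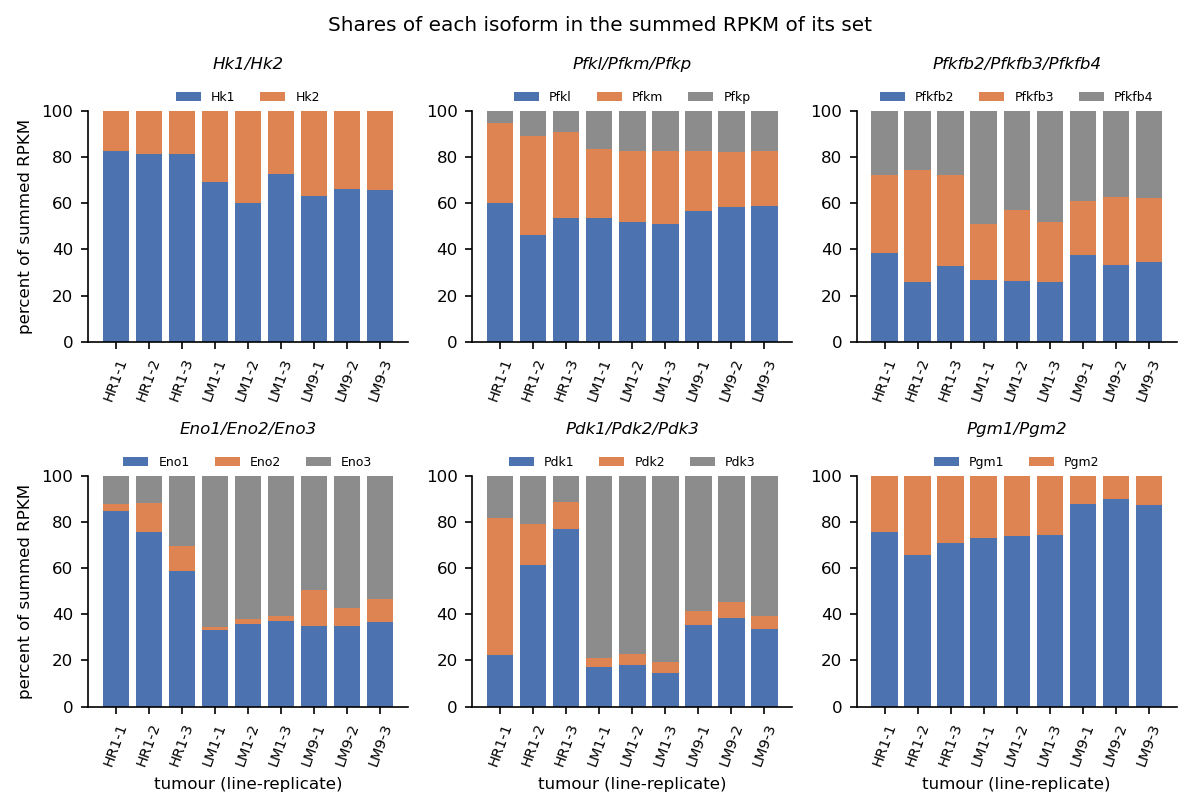
Stacked shares (percent of the summed RPKM, y axes from 0 to 100) of the isoforms in 6 sets for each of the 9 tumours (x axes). The HR1 bars hold more Hk1, Pfkm and Eno1 and less Pfkp, Pfkfb4, Eno3 and Pdk3 than the LM bars, Pdk2 is large only in HR1 replicate 1, and Pgm1 is largest in the LM9 bars.

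Of 60 further genes of glucose, lactate, glycogen and pentose metabolism, 51 were in the files. In LM1 against HR1 5 were higher (all genes 16.7%) and 12 lower (all genes 18.7%), with a median log2 fold change of -0.32. In LM9 against HR1 8 were higher (all genes 20.4%) and 13 lower (all genes 21.9%, median of the list -0.11), and in LM9 against LM1 9 were higher (all genes 11.5%) and 3 lower (all genes 10.6%, median of the list 0.00). Without the tumour labelled HR1 replicate 1 the counts were 11 higher and 18 lower in LM1 (all genes 26.9% and 26.0%) and 12 higher and 15 lower in LM9 (all genes 27.9% and 27.8%). LM9 against LM1 then gave 12 higher and 10 lower (all genes 22.9% and 22.5%), and with the 6 LM tumours fitted alone 16 were higher and 17 lower of the 50 tested (all genes 28.3% and 28.0%). The largest rises in LM1 were Fbp2, the muscle fructose bisphosphatase (5.49 ± 0.96), Pdp2, a second pyruvate dehydrogenase phosphatase (1.19 ± 0.28), and Tigar (0.92 ± 0.14). Fbp2 had 5.50, 3.92 and 4.98 CPM in LM1, at most 0.257 CPM in HR1 and at most 0.0458 CPM in LM9, a pattern like that of Ldhb. The largest falls in LM1 were Pgm5 (-4.79 ± 1.21), Bpgm, the bisphosphoglycerate mutase of red cells (-2.53 ± 0.37), and Slc2a6 (-1.79 ± 0.38). In LM9 against HR1 the largest rises were Hkdc1 (3.63 ± 1.19, at most 0.945 CPM), Gys1, muscle-type glycogen synthase (1.61 ± 0.33), and Pdp2 (1.48 ± 0.28), and the largest falls Fbp1 (at most 1.13 CPM in any tumour), Pgm5 (-3.35 ± 1.12) and Bpgm (-2.74 ± 0.37). In LM9 against LM1 the largest rises were Gys1 (1.71 ± 0.33), Bsg (1.41 ± 0.22) and Shpk (1.07 ± 0.30), and the largest falls Fbp2, Fbp1 and Prps2 (-0.77 ± 0.18). Bsg encodes basigin, the partner that brings MCT1 and MCT4 to the membrane, and had 2197, 1352 and 1302 CPM in HR1, 1221, 1211 and 1374 CPM in LM1 and 3176, 3739 and 3213 CPM in LM9, the LM9 tumours above all others. Pgm5 was high in 2 HR1 tumours only, at 36.5, 19.0 and 0.386 CPM. The rises and falls against HR1 named for this list were still called without the tumour labelled HR1 replicate 1, except that of Pgm5 in LM9, at -2.40 (edgeR adjusted p = 0.0823), with Pgm5 at -3.84 in LM1 and Gys1 at 1.27 in LM9.

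Hypoxia-responsive genes outside glycolysis were counted beside these. Of 28 such genes, 9 rose (all genes 16.7%) and 2 fell (all genes 18.7%) in LM1 against HR1, with a list median of 0.33. In LM9 against HR1 17 rose (all genes 20.4%) and 2 fell (all genes 21.9%, median of the list 1.32). Against LM1, 14 were higher in LM9 (all genes 11.5%) and none was lower (all genes 10.6%, median of the list 0.78). Without the tumour labelled HR1 replicate 1, 13 were higher and 8 lower in LM1 (all genes 26.9% and 26.0%), and 19 higher and 3 lower in LM9 (all genes 27.9% and 27.8%). LM9 against LM1 had 17 higher and 2 lower in that setting (all genes 22.9% and 22.5%) and 19 higher and 4 lower with the 6 LM tumours fitted alone (all genes 28.3% and 28.0%). Their summed CPM was 3218 to 4830.4 in HR1, 6407 to 7375 in LM1 and 15975 to 18329 in LM9. Ndrg1 alone gave 1169.8 to 1487 CPM of that sum in HR1, 2525 to 3233 CPM in LM1 and 9093 to 10396 CPM in LM9. The largest rises in LM9 against HR1 were Ero1l, an oxidase of the endoplasmic reticulum (4.07 ± 0.29), Adm, adrenomedullin (3.84 ± 0.50), and Ndrg1 (2.88 ± 0.17), and the falls were Lox (-3.51 ± 0.84) and Angptl4 (-3.25 ± 1.01). In LM9 against LM1 the largest were Ero1l (2.97 ± 0.28), Adm (2.45 ± 0.46) and Hilpda (1.84 ± 0.21). In LM1 against HR1 they were Ddit4 (2.38 ± 0.38), Egln3 (1.54 ± 0.33) and Adm (1.39 ± 0.46), with falls in Lox (-2.61 ± 0.81) and Mxi1 (-0.82 ± 0.25). All of those against HR1 were still called without the tumour labelled HR1 replicate 1, with values in LM9 of 3.83 for Ero1l, 4.07 for Adm, 2.80 for Ndrg1, -4.00 for Lox and -3.80 for Angptl4. In LM1 they were 2.06 for Ddit4, 1.21 for Egln3, 1.62 for Adm, -3.10 for Lox and -1.04 for Mxi1. Within HR1, Lox had 2.13, 26.3 and 5.07 CPM and Angptl4 had 1.86, 19.7 and 63.4 CPM. The tumour left out was thus the lowest HR1 tumour for both, and for Angptl4 it lay inside the LM9 range (1.62 to 5.04 CPM). Ero1l was picked out by the study on these samples and is not independent evidence for the list.

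**Figure D5:**
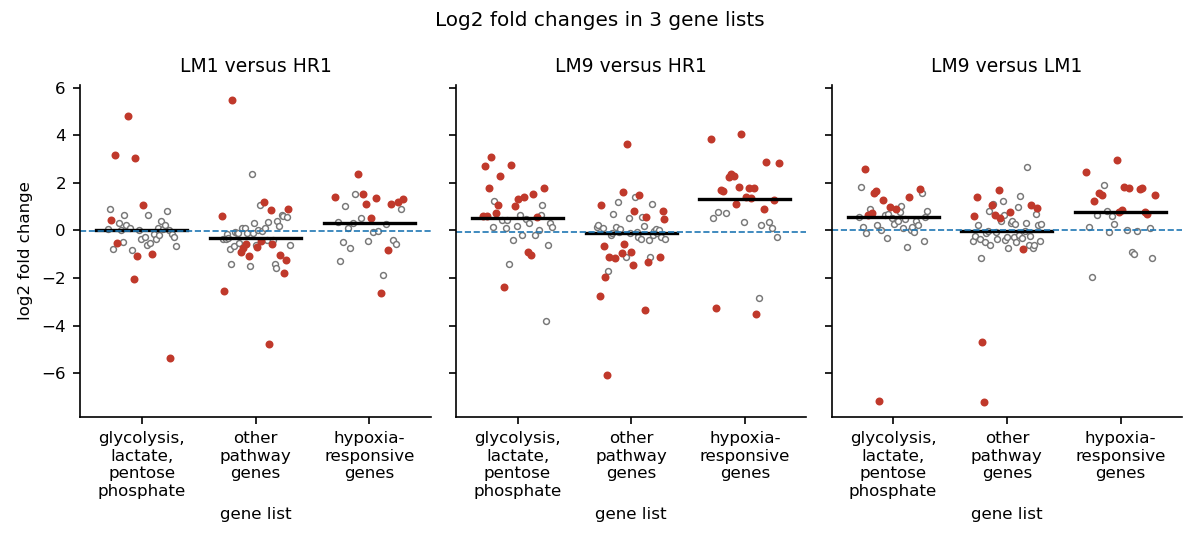
Log2 fold change (y axis) of each gene in the 38-gene list, the 51 other pathway genes and the 28 hypoxia-responsive genes in 3 comparisons, red where the adjusted p is under 0.05, with black bars at list medians and a dashed line at the median of all genes. The 38-gene list and the hypoxia-responsive genes lie mostly above the line in both LM9 panels, and the other pathway genes lie on both sides of it.

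Markers of other cells moved with the lines as well. The summed CPM of 16 leukocyte markers was 298 to 1326 in HR1, 252 to 283 in LM1 and 222 to 278 in LM9, with 9 of 16 lower in LM1 (all genes 18.7%) and 12 of 16 lower in LM9 (all genes 21.9%) than in HR1. In LM9 against LM1, 3 of the 16 were lower (all genes 10.6%) and 1, Cd68, was higher (all genes 11.5%), and with the 6 LM tumours fitted alone 10 were lower (all genes 28.0%) and Cd68 was again higher (all genes 28.3%). 3 red cell markers summed to 27.3 to 246 in HR1, 20.6 to 67.1 in LM1 and 7.08 to 18.5 in LM9, and all 3 were lower in LM9 than in HR1 (all genes 21.9%). The 10 fibroblast markers summed to 23423 to 35254 in HR1, 10404 to 13828 in LM1 and 8976 to 10546 in LM9, with 5 of 10 lower in LM1 (all genes 18.7%) and 9 of 10 in LM9 (all genes 21.9%). Of 9 endothelial markers, Cdh5 and Kdr were higher in both LM lines and set the sum (11.6 to 39.9 in HR1, 167 to 230.1 in LM1, 261 to 298 in LM9). Of the other 7, none was called in LM1 against HR1, and Pecam1, Tie1 and Emcn were lower in LM9 (-2.64, -3.35 and -4.18 on the log2 scale, with at most 6.42 CPM in any tumour), and the list medians were -1.43 and -1.81. Without HR1 replicate 1, 4 were lower in LM1 and 5 in LM9, with medians of -1.85 and -2.24, and Cdh5 and Kdr were still called higher. The 6 epithelial markers summed to 7.55 to 121 in HR1, 158 to 181 in LM1 and 14.4 to 17.97 in LM9. The 3 adipocyte markers in the files summed to at most 9.84 CPM. Of 9 muscle markers, 5 were in the files and summed to 2.03 to 8.44 in HR1, 5.59 to 6.70 in LM1 and 2.54 to 3.11 in LM9. Mylpf and Pvalb were called higher in LM1 than in HR1 (all genes 16.7%), and the 1 marker with a fall, at -3.12, was not called there. In LM9 Pvalb was higher (all genes 20.4%) and Acta1 lower (all genes 21.9%) than in HR1. Pvalb was under 1 CPM in every tumour. The part of other cell types in the values above was not tested.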

How the data were processed

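RNA of GFP-positive cells sorted from 9 tumours (3 each of HR1, LM1 and LM9) was sequenced as stranded mRNA in single-end reads of 50 bases. The deposited values are counts: STAR (version not given in the sources used here) was used by the authors to place reads on mm10, and they counted the 5′ ends of reads over the merged exons of each gene with QuasR. The treatment of reads with several matches and the strand setting of the counts are not given there. Genes are listed by Entrez number, and 14085 of 14108 matched a RefSeq symbol.

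Counts were scaled by TMM (factors 0.928 to 1.05) and fitted over all 9 tumours with edgeR 4.0.16 (R 4.3.3), by the quasi-likelihood test with robust empirical Bayes, after filterByExpr had left out 22 genes. P-values were adjusted by Benjamini-Hochberg over 14086 genes, and called means an adjusted p under 0.05. The study used limma-voom, which was tried as an alternative (limma 3.58.1), as were DESeq2 1.42.0, other scaling, other filters, a 2-fold minimum, a replicate block, fits of only the tumours compared and leaving out each tumour. RPKM used exon unions of GENCODE vM21. The scripts were tested on simulated data.

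The labels give separate samples but do not say whether each came from its own animal, so p-values measure the spread between these samples. The genes and the lists beside them were chosen with earlier results of these data known. Genes were named in full where a pairwise comparison called them with at least a 2-fold change or where they had the highest RPKM of their role, and from the other lists the 3 called genes with the largest rise and fall in each pairwise comparison. CPM and RPKM are computed values. Shares of isoforms were compared by exact permutation tests in Python 3.11.15. Counting intervals are exact (Clopper-Pearson, 95%).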

Additional observations from a re-analysis of the deposited data

Results flagged for a closer look

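For 11 of the 38 genes (28.9%) the change against HR1 differed between the LM9 and LM1 lines, tested as LM9 against LM1 in the fit of all 9 tumours, where 22.0% of all genes were called. On the log2 scale the LM9 change exceeded the LM1 change for Eno2 (2.59, edgeR adjusted p = 0.0139), Slc2a1 (1.74, edgeR adjusted p = 0.0132), Hk2 (1.65, edgeR adjusted p = 0.0128), Hk1 (1.56, edgeR adjusted p = 0.00533) and Pgm1 (1.42, edgeR adjusted p = 0.00323). It also did so for Pdk1 (1.27, edgeR adjusted p = 0.0237), Pfkfb2 (0.98, edgeR adjusted p = 0.00818), Pfkl (0.89, edgeR adjusted p = 0.0252), Gpi1 (0.72, edgeR adjusted p = 0.011) and G6pdx (0.64, edgeR adjusted p = 0.0237). Ldhb went the other way, with a difference of -7.18 (edgeR adjusted p = 0.00146). In the fit of all 9 tumours, Ldhb alone had its changes against HR1 called in opposite directions in the 2 lines. Its LM9 change rested on 25 counts in HR1 and 5 in LM9, and that call was lost in 10 of 17 other settings. Without the tumour labelled HR1 replicate 1, Hk1, Pfkl and Eno2 were also called higher in LM9 and lower in LM1. In the tumours on which the LM9 against LM1 calls rest, every LM9 tumour lay above every LM1 tumour for the 10 genes higher in LM9. This describes the same tumours and is no further support.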

How the results depend on the processing

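No call of the 38 genes changed direction in any of the 18 other settings. In LM1 against HR1 the count of 10 called genes became 5 with only the tumours compared. It ranged from 5 to 19 when 1 tumour was left out, highest without HR1 replicate 1 (all genes 26.9% higher and 26.0% lower). In LM9 against LM1 the count of 11 became 27 with only the tumours compared (all genes 28.3% higher and 28.0% lower). It became 7 with a 2-fold minimum (all genes 11.2%). It ranged from 4 (without LM1 replicate 1) to 23 (without HR1 replicate 1, all genes 22.9% higher and 22.5% lower). In both lines against HR1 the count of 15 became 7 with a 2-fold minimum (all genes 23.7%) and ranged from 10 to 19 when 1 tumour was left out. In LM9 against HR1 the count of 18 stayed within 1.5 times, from 12 to 26. The 12 isoform shares that passed fell to a range of 0 to 0 when 1 LM tumour was left out, where the smallest adjusted p the data gave was 0.0536, and could not pass without an HR1 tumour. The cause of the changes with the tumours in the fit was not tested. DESeq2 called 12, 24, 15 and 18 genes and limma-voom 9, 20, 12 and 15 in LM1 against HR1, LM9 against HR1, LM9 against LM1 and both lines against HR1. Tumours share replicate numbers across lines only as numbers, with correlations of same-numbered deviations of -0.117 to 0.162, and with the replicate block these counts were 7, 18, 11 and 11. The fit of only the tumours compared is the same as the fit of all tumours for both lines against HR1. The share of all genes called moves with the setting too. Where that share is not printed, a changed count cannot be read as a change of these 38 genes.

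The limits are those of 3 tumours a line and 1 cell line a group, of an HR1 group with 1 tumour unlike the others, and of 6 genes with many shared windows. Counts were few in at least 1 group for Ldhb, Fbp1, Fbp2 and Hkdc1, so depth limits their folds.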

Other observations

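Some genes of glycogen metabolism, grouped after their values were seen, differed between the LM lines. Gys1, muscle-type glycogen synthase, had 29.5, 66.6 and 89.0 CPM in HR1, 57.5, 55.2 and 59.1 CPM in LM1 and 179.7, 199 and 185 CPM in LM9. Gbe1, the branching enzyme, had 41.3, 86.2 and 66.8 CPM in HR1, 30.3, 34.2 and 39.1 CPM in LM1 and 62.6, 80.7 and 71.2 CPM in LM9. Against LM1 the LM9 level was higher by 1.71 ± 0.33 for Gys1 and 1.05 ± 0.25 for Gbe1 on the log2 scale (edgeR adjusted p = 0.00898 and 0.02), in 3 of 3 LM9 tumours each. Against HR1, Gys1 rose in LM9 and Gbe1 fell in LM1 (1.61 ± 0.33 and -0.91 ± 0.25, edgeR adjusted p = 0.00545 and 0.022). Gyg, the glycogenin primer of glycogen, fell in both lines, with -0.57 ± 0.17 in LM1 and -0.95 ± 0.17 in LM9 (edgeR adjusted p = 0.0276 and 0.00295). Pygb, the brain-type phosphorylase, had 59.1 to 62.4 CPM in LM1 and 56.5 to 64.9 CPM in LM9 and was not called in a pairwise comparison. With HR1 replicate 1 left out, Gys1 in LM9 was at 1.27, Gbe1 in LM1 at -1.14 and Gyg at -0.52 and -0.90 (edgeR adjusted p = 8.0e-05, 3.5e-04, 0.0288 and 0.00179). Pygb was then called lower in both lines, at -0.54 and -0.55, and Gys1 lower in LM1, at -0.43 (edgeR adjusted p = 0.0027, 0.0023 and 0.0224).

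The mitochondrial pyruvate carrier, made of Mpc1 and Mpc2, was lower in LM9 than in HR1, with log2 fold changes of -0.89 ± 0.32 and -1.44 ± 0.24 (edgeR adjusted p = 0.0491 and 0.00207). Mpc2 was also called lower in LM1, at -0.69 ± 0.23 (edgeR adjusted p = 0.0475), though not without the tumour labelled HR1 replicate 1, at -0.45 (edgeR adjusted p = 0.0772). Mpc2 had 125, 95.5 and 68.4 CPM in HR1, 62.7, 46.8 and 69.6 CPM in LM1 and 31.5, 36.8 and 38.3 CPM in LM9. With HR1 replicate 1 left out the LM9 values were -0.91 and -1.20 (edgeR adjusted p = 0.0333 and 6.6e-04).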
